A study of Mus musculus with 16 samples.

Results

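The loci of 7 transcription factor genes of the myeloid lineage, Spi1, Runx1, Ikzf1, Cebpa, Cebpb, Irf8 and Irf4, were examined for H3K4me1, the histone modification that marks enhancers and the flanks of promoters. For each gene a fixed window of mm9 around it was taken by position, and every H3K4me1 summit inside the 7 windows was kept. The windows held 145 of the 79796 summits listed for dendritic cells and 100 of the 81860 listed for 3T3 fibroblasts. The dendritic cells were unstimulated mouse cells grown from bone marrow progenitors, first in SCF, IL-3 and IL-6 and then in GM-CSF with SCF and in GM-CSF alone. Their progenitors had been infected with a retrovirus carrying a hairpin against JmjD2d, a histone demethylase, and selected with histidinol. The 3T3 cells, an established mouse fibroblast line, were unstimulated and grown under standard conditions, and their labels name no hairpin. Cell type and the hairpin therefore cannot be told apart. The cell type field of the 3T3 sample reads dendritic cells, against its title, description and list header, and the list was treated as 3T3. Of the 16 samples described, 14 (stimulated cells, acetylation and input DNA) were not analysed here. Each cell type was 1 library, so no difference between them has a replicate check and no p-value is given. All 95% intervals cover counting error only.

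A summit is the highest point of a peak, and its score was taken as the height of the signal there, which the list header does not name. The scores of both lists were whole numbers from 13 upwards, with a median of 36 in dendritic cells and 33 in 3T3. They were not scaled to each other, so heights are described as percentiles within each list. How many reads lie behind each list is unknown, so a place without a summit is one where none was listed.

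Blood cell identity is set by a small number of transcription factors that act together at enhancers. PU.1, the ETS family protein made from Spi1, and the C/EBP proteins open chromatin at myeloid enhancers, RUNX1 is needed for blood stem cells to arise and stays active in many blood lineages, and Ikaros, from Ikzf1, is a zinc finger factor of blood cells. IRF8 and IRF4 bind jointly with PU.1 at composite sites and steer the formation of different dendritic cell types. C/EBPbeta is also known in fibroblasts, where it takes part in adipocyte differentiation and inflammatory responses. Retroviral insertions and translocations have linked several of these genes to leukaemia.

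The genome sequence of mm9 was not used here, so no sequence under a summit was read, and the starts of the genes could not be placed among the summits. To show what kinds of promoter the windows contain, the sequence around annotated starts (250 bases before to 50 after) was taken from RefSeq for GRCm38.p6. Of the 7 genes, 6 matched, with 9 starts. The promoters of 3 genes are printed, each 5′ to 3′ in the direction of the gene (Irf8 and Ikzf1 on the plus strand, Runx1 on the minus strand). Ikzf1 was taken for its near absence of 3T3 summits and Irf8 for its equal numbers at unequal median heights. Runx1 was taken for its distal and proximal starts. Capitals mark TGTGGT (RUNX), GAGGAA (PU.1) and TTCNNNGAA (the GAS element bound by STAT factors) on either strand.
Ikzf1, first start: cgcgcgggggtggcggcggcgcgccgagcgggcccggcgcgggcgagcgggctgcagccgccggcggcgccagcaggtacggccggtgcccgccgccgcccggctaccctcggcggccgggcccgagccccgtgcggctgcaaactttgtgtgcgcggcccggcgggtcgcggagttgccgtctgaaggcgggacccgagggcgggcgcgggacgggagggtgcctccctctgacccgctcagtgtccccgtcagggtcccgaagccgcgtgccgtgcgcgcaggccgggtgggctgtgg
Irf8, first start: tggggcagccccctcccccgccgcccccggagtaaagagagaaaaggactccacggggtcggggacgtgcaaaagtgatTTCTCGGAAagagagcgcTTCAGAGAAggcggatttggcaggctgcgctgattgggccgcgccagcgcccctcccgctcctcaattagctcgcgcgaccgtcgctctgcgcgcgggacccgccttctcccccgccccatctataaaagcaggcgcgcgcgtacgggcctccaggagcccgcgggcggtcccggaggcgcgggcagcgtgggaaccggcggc
Runx1, distal start: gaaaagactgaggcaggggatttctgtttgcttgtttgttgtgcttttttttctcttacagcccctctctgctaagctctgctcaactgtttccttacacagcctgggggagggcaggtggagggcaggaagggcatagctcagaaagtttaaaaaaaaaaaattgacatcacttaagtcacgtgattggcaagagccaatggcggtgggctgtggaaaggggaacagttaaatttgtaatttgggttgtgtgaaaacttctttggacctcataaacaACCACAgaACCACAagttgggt
Runx1, proximal start: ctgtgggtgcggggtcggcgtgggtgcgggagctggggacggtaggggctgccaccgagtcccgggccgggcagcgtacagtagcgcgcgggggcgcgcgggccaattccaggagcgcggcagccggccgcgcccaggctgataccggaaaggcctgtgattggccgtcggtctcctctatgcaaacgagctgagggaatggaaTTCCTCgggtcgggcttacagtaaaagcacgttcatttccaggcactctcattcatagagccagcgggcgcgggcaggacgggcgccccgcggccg
The printed Ikzf1 promoter held 52 CpG dinucleotides, the printed Irf8 promoter 38 and the proximal Runx1 promoter 35, against a median of 7 over all 32851 promoters of the table. The second starts of Ikzf1 and Irf8, not printed, held 2 and 8. The distal Runx1 promoter, which in mammals is used mainly in blood cells, held 2. It was the only one of the 9 with the RUNX letters, which it held at 2 places, against 16.8% of all promoters. The GAS letters occurred in 2 of the 9, at 2 places in the printed Irf8 promoter and at 1 in the second Ikzf1 promoter, against 8.30% of all promoters. The PU.1 letters occurred in 2 of the 9 (Irf4 and proximal Runx1), against 28.3% of all. The letters GAAANNGAA (IRF) and TTGCNNAA (C/EBP), also searched on both strands, occurred in none of the 9, against 8.56% and 10.8% of all. No match overlapped another in the printed promoters. The 9 promoters are too few to set any of these counts apart from the shares over all promoters. A match of letters does not show binding.

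Both cell types had H3K4me1 summits in every window, and dendritic cells had more in 6 of 7, with equal numbers at Irf8. Most of these shares were ordinary for genome stretches of the same length with at least 10 summits. A dendritic cell share as high was reached by 56.0% of them for Irf8, 43.7% for Irf4, 41.5% for Cebpa and 39.7% for Spi1. For Cebpb it was 30.7%, for Runx1 21.4% and for Ikzf1 1.72%. Together the windows held 59.2% dendritic cell summits (exact Clopper-Pearson 95% interval 52.7 to 65.4), against 49.4% over the whole lists. Without Ikzf1 the share was 57.0% (50.3 to 63.4), from 131 dendritic cell and 99 3T3 summits. Only Ikzf1 held at least 2 times as many dendritic cell as 3T3 summits. Among stretches of the genome of the same length with at least 10 summits, 19.5% of those of 150 kb met that criterion, 18.5% at 200 kb, 18.2% at 220 kb and 16.1% at 350 kb. A count of 1 in 7 windows is therefore close to the background.

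**Figure D1:**
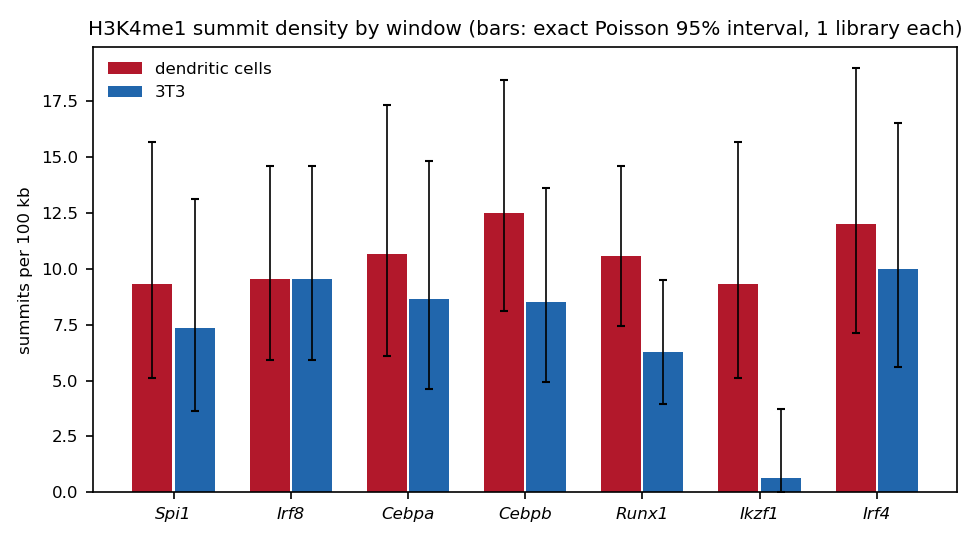
Number of H3K4me1 summits per 100 kb (vertical axis) in each window for dendritic cells (red) and 3T3 (blue), with exact Poisson 95% intervals from 1 library each. The bars overlap in their intervals at 6 windows and stand apart at Ikzf1, with 14 summits against 1.

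Summits of the top decile were more frequent in the windows than in the lists as a whole. In dendritic cells 46 of the 145 summits (31.7%, 24.3 to 40.0) belonged to the top decile of their list, against 10.2% of all summits (scores of 79 or more). In 3T3 this was 20 of 100 (20.0%, 12.7 to 29.2), against 10.1% of all (scores of 75 or more), and 8 of the 20 were at Cebpb. The median dendritic cell summit of the windows stood at the 71.6th percentile of its list (order-statistic 95% interval 61.7 to 84.8), and the median 3T3 summit at the 56.2nd (45.3 to 67.3), an interval that includes the middle of the list. Of these high summits, 32 of 46 in dendritic cells (69.6%, 54.2 to 82.3) and 15 of 20 in 3T3 (75.0%, 50.9 to 91.3) lay more than 1000 bp from any summit of the other list. Over all top-decile summits these shares were 63.5% and 66.3%, within the intervals. Over all summits of the windows, no counterpart within 1000 bp was found for 108 in dendritic cells (74.5%, 66.6 to 81.4) and 63 in 3T3 (63.0%, 52.8 to 72.4). The shares over the whole lists, 69.4% and 70.2%, lay within these intervals, so the frequency of unshared positions was not distinguishable from that of the lists at this number of summits.

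**Figure D2:**
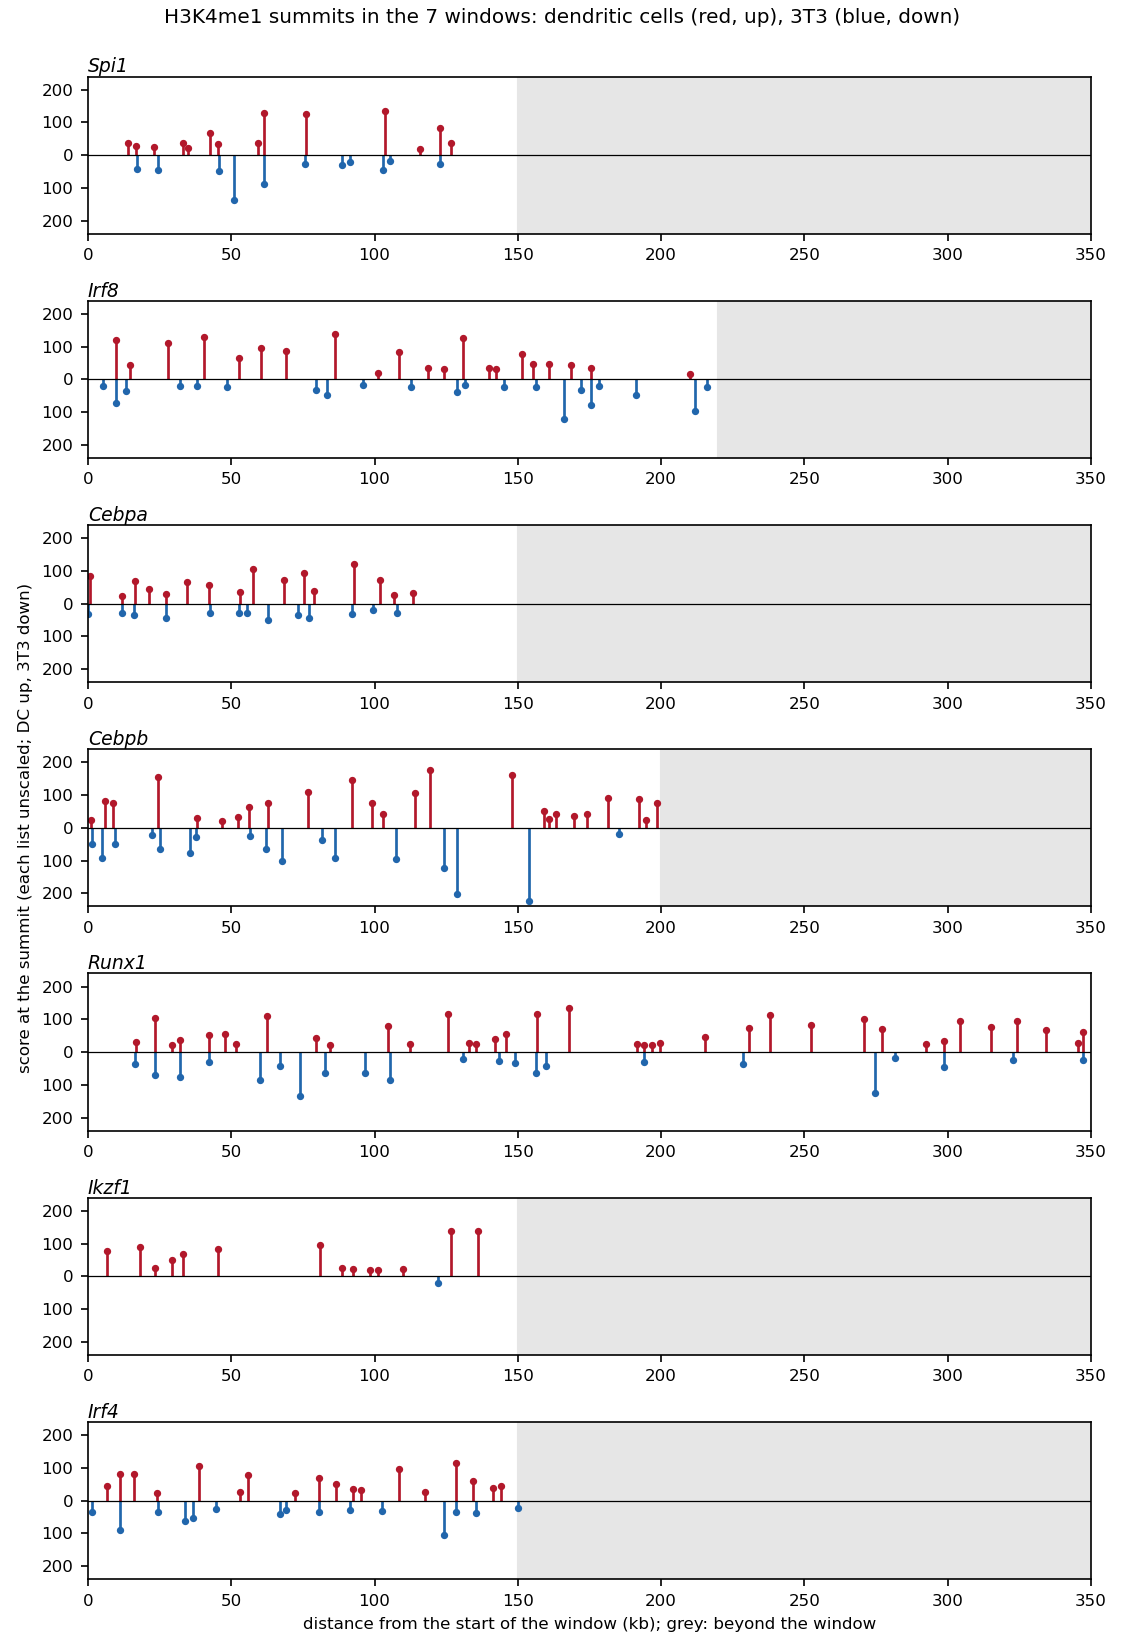
Summits along each window, plotted by distance from its start in kb (horizontal axis), with the score as the length of the line, upwards for dendritic cells (red) and downwards for 3T3 (blue); the lists are unscaled and grey marks what lies beyond the window. Ikzf1 shows 14 lines upwards and 1 downwards, Cebpb tall lines of both colours, and the left of the Irf8 window tall red lines over short blue ones.

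At Spi1, which encodes PU.1, the number of summits was similar in both cell types. The 4 strongest dendritic cell summits were at positions shared with 3T3. The window, on chromosome 2 from 90850000 to 91000000, held 14 dendritic cell summits with scores from 20 to 134 (median 37). In 3T3 it held 11, with scores from 19 to 136 (median 42). In the order of the GRCm38 annotation, Psmc3 and Slc39a13 precede Spi1 and Mybpc3 and Madd follow it, so the window can hold elements of genes that are not specific to blood. All 4 dendritic cell summits of the top decile had a 3T3 summit within 1000 bp, the farthest at 491 bp. Over all top-decile summits of the dendritic cell list 63.5% had none within 1000 bp, and 4 summits are too few to set the window apart. The highest of the 4, at 90953570, scored 134, and the 3T3 summit 491 bp away scored 46. At 90926033 the dendritic cell score was 126, and the 3T3 score 211 bp away was 27. At 90972883 the scores were 84 and 26, at 79 bp from each other. The fourth, at 90911455, scored 128 and lay 97 bp from a 3T3 summit of 88. With the median over all pairs of the genome as reference, the first 3 of these differed by log2 ratios of 1.42, 2.10 and 1.57 in favour of dendritic cells, and the fourth by 0.42. The highest dendritic cell summit without a counterpart, at 90892533, scored 68, and the nearest of 3T3 was 3157 bp away. A strong 3T3 summit without a counterpart stood at 90901097, with a score of 136, and its nearest dendritic cell summit, 5791 bp away, scored 34. Spi1 was the window where the median height was lower in dendritic cells than in 3T3, at the 52.0th percentile against the 65.9th, with intervals (23.2 to 98.7 and 9.06 to 93.7) too wide to separate them.

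Runx1 had the longest window and the second highest dendritic cell share. On chromosome 16 from 92550000 to 92900000 dendritic cells had 37 summits, with scores from 20 to 135 (median 52). The 22 of 3T3 had scores from 17 to 134 (median 42.5). The dendritic cell share was 62.7% (49.1 to 75.0), and 21.4% of genome stretches of 350 kb had a share as high. The number of dendritic cell summits was reached by fewer, 7.80%. The median summit stood at the 72.6th percentile in dendritic cells (39.6 to 87.9) and at the 66.6th in 3T3 (42.7 to 87.7). Both intervals include the middle of the list. In dendritic cells 11 of 37 were in the top decile and in 3T3 5 of 22, against 10.2% and 10.1% over the whole lists. Of these high summits 8 in dendritic cells and 3 in 3T3 had no counterpart. Over all top-decile summits 63.5% and 66.3% had none, and so few summits cannot set the window apart from these shares. The highest dendritic cell summit, at 92717861 (score 135), was 7903 bp away from any of 3T3. The highest 3T3 summit, at 92624022 (score 134), was 5663 bp away from one of 43 in dendritic cells. From 92778617 to 92824513 no 3T3 summit was listed over 45.9 kb, and dendritic cells had 4, among them summits of 114, 84 and 101. The stretch ended at a 3T3 summit of 125. Of the 81838 stretches between neighbouring 3T3 summits of the genome, 12906 were at least 31.4 kb long, and those of 45.9 kb were not counted. The densest 10 kb held 4 dendritic cell summits, all low, with scores of 26, 21, 20 and 27 from 92741713 to 92749527. In the other 6 windows the densest 10 kb held 3 in dendritic cells, and in 3T3 it held from 1 to 3. At the 9 shared pairs neither cell type was consistently higher (log2 ratios from -1.18 to 1.22, median -0.23).

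Ikzf1, which encodes Ikaros, was the one window marked almost entirely in dendritic cells. On chromosome 11 from 11550000 to 11700000 dendritic cells had 14 summits (exact Poisson interval 7.65 to 23.5) and 3T3 had 1 (0.0253 to 5.57). The dendritic cell share was 93.3% (68.1 to 99.8), and 1.72% of genome stretches of 150 kb had a share as high. The dendritic cell scores ranged from 18 to 138 with a median of 58.5. Of the 14 summits 5 were in the top decile (90, 84, 97, 138 and 138, from left to right), against 10.2% of the whole list. The median of the 14 stood at the 77.1st percentile (16.8 to 95.1), and the scores formed a high and a low set, as the plot of percentiles shows. The 3T3 summit, at 11671978, had a score of 22. Its nearest neighbour in dendritic cells, 4875 bp away at 11676853, had 138, the highest score of the window. None of the 14 had a counterpart, against 69.4% without one over the whole list. With 1 3T3 summit in the window this adds little to the numbers of 14 and 1.

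The absence of 3T3 summits reached far beyond the gene on 1 side. Between the 3T3 summits at 9018971 and 11671978 lay 2653 kb without another, in which dendritic cells had 56 summits, 12 in the window and 44 to its left. Of the 81838 stretches between neighbouring 3T3 summits, 2 held as many dendritic cell summits, this one included, and 78 were as long. The 56 summits scored from 16 to 123, with a median of 30 against 36 over the whole list. Of the 56, 7 were in the top decile, near the share of 10.2% over the list, so by height they did not stand out. On the right the absence of 3T3 summits did not hold: the flank of equal length there held 15 3T3 and 8 dendritic cell summits. In the annotation order Spata48 and 4930512M02Rik precede Ikzf1, and Fignl1 and Ddc follow it. Whether 3T3 cells still carry this stretch of DNA was not tested, since input DNA was not analysed.

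Cebpa and Cebpb encode paired members of the C/EBP family, and their windows differed in what 3T3 showed. At Cebpa, on chromosome 7 from 35850000 to 36000000, dendritic cells had 16 summits with scores from 23 to 122 (median 60.5). In 3T3 there were 13, all low to moderate, with scores from 20 to 50 (median 31). In percentiles the medians were 79.7 (42.0 to 92.0) and 45.3 (36.9 to 67.3), with intervals that overlap. The highest 3T3 summit, of 50 at 35912713, had its nearest in dendritic cells at 5091 bp. None of the 13 3T3 summits was in the top decile, against 4 of 16 in dendritic cells. Over the whole lists the shares were 10.1% and 10.2%, and 13 summits are too few to set the window apart from the 3T3 list. The difference between the medians, 34.4 percentile points, was reached by 5.75% of genome stretches of 150 kb with both lists present. The highest dendritic cell summit, at 35942840, scored 122, and its 3T3 counterpart 643 bp away scored 31. The highest one without a counterpart, at 35907622, had a score of 106, and the nearest of 3T3, 2105 bp away, had 29. No counterpart was listed for 9 of 16 dendritic cell and 6 of 13 3T3 summits, shares whose intervals (29.9 to 80.2% and 19.2 to 74.9%) include those of the whole lists. At the 7 pairs, 5 log2 ratios lay above the median of all pairs and 2 were at least 2-fold in favour of dendritic cells (1.33 and 1.85). In the annotation order Cebpg, another member of the family, and Gm45095 precede Cebpa.

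At Cebpb both cell types had tall summits. The window, on chromosome 2 from 167450000 to 167650000, held 25 dendritic cell summits with scores from 22 to 176 (median 75). It held 17 in 3T3, from 18 to 224 (median 65). The medians stood at the 88.3rd (60.2 to 93.2) and 85.8th percentile (59.8 to 94.8). The 3T3 interval overlapped that of Cebpa (36.9 to 67.3) in part. Few genome stretches of 200 kb with both lists present had medians as high, 0.485% for dendritic cells and 0.791% for 3T3. In dendritic cells 9 summits were in the top decile, 8 of them without a counterpart, and in 3T3 8 were, all 8 without one. Over all top-decile summits the shares without one were 63.5% and 66.3%, and so few summits cannot set the window apart from them. A dendritic cell summit of 82 and a 3T3 summit of 92 were counted as unshared at 1172 bp from each other, just past the limit of 1000 bp. The highest dendritic cell summit, at 167569204 (score 176), had its nearest 3T3 summit, of 122, at 5033 bp. The highest 3T3 summit, at 167603966 (score 224), had its nearest dendritic cell summit, of 51, at 5024 bp. Another 3T3 summit, of 202 at 167578712, was 9508 bp away from any in dendritic cells. Between 167569204 and 167598130 dendritic cells had none for 28.9 kb, in which 2 3T3 summits, of 122 and 202, were listed. Gaps of this length were not rare: 9099 of the 79774 stretches between neighbouring dendritic cell summits were at least 35.6 kb long. Farther right, from 167608990 to 167631625, came 6 dendritic cell summits with no 3T3 summit between them. Their scores ran from 26 to 91. The stretch without 3T3 summits around them was 31.5 kb long, which was not rare either: 12906 of the 81838 stretches between neighbouring 3T3 summits were at least 31.4 kb long. The height in 3T3 was not limited to the window: the flanks of equal length had 3T3 medians of 67 and 64. In dendritic cells the flanks were lower, at 35 and 44.5, against 75 in the window. In the annotation order Ube2v1 and Tmem189 precede Cebpb and Ptpn1 and Ripor3 follow it.

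**Figure D3:**
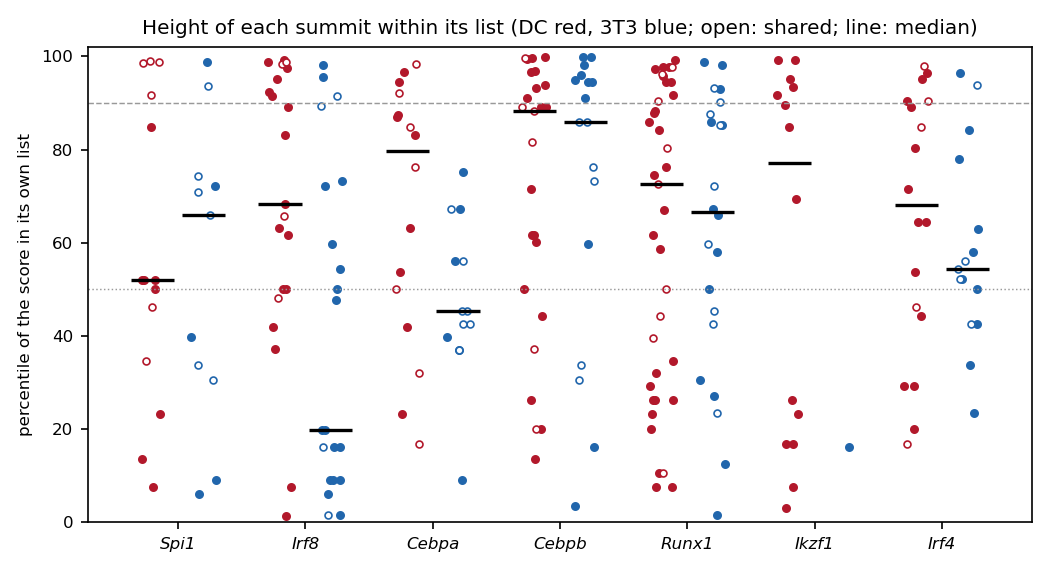
Percentile of each summit's score within its own list (vertical axis) by window, for dendritic cells (red) and 3T3 (blue); open circles are shared summits, horizontal lines medians, and the dashed line the 90th percentile. Both medians are high at Cebpb (88.3 and 85.8), and they are farthest apart at Irf8 (68.3 and 19.9) among the 6 windows with more than 1 3T3 summit.

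Irf8 had equal numbers of summits in both lists and unequal median heights. On chromosome 8 from 123180000 to 123400000 each list had 21 summits (exact Poisson interval 13 to 32.1). Scores ran from 17 to 139 in dendritic cells (median 48) and from 17 to 122 in 3T3 (median 23). The medians stood at the 68.3rd (50.1 to 95.1) and the 19.9th percentile (9.06 to 72.1), with intervals that overlap in part. This difference of 48.4 points was reached by 0.930% of genome stretches of 220 kb with both lists present, and 96.1% of them had a higher or equal 3T3 median. In dendritic cells 8 of 21 summits were in the top decile (10.2% over the whole list), 6 of them without a counterpart (63.5% over all top-decile summits). All 8 lay in the part of the window up to 123310891. The 3 of 3T3 lay to the right of it, at 123346079 (122), 123355668 (79) and 123391772 (98). The highest dendritic cell summit, at 123266267, scored 139, and the nearest 3T3 summit, 3003 bp away, scored 47. At 123310891 the dendritic cell score was 127, and the 3T3 summit 836 bp away scored 17, a relative log2 ratio of 2.78 that was the highest in any of the windows. The opposite was seen at 123355623, where the dendritic cell score was 35 and the 3T3 score, 45 bp away, was 79 (-1.30). In both lists 17 of 21 summits had no counterpart (81.0%, 58.1 to 94.6), an interval that includes the shares over the whole lists, 69.4% and 70.2%.

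The 3T3 scores were lower in the window than in either flank. In 3T3 the flank on the left had a median of 57 with 10 of 25 summits in the top decile, and that on the right 41 with 5 of 28. The window had 23, with 3 of 21. Dendritic cells ran the other way, with 36 on the left, 48 in the window and 22 on the right, where 3 summits were listed. From 123390001 to 123606838 no dendritic cell summit was listed over 217 kb, and 3T3 had 28 there, with scores from 14 to 217 (median 36). Of the 79774 stretches between neighbouring dendritic cell summits, 150 held as many 3T3 summits. The next protein-coding gene on this side in the annotation order is Foxf1, a forkhead factor of mesenchymal tissues, and Emc8 and Cox4i1 lie on the other. Chromosome 8 as a whole was richer in 3T3 summits, with 39.8% from dendritic cells. The 50% of the Irf8 window stood above that value (log2 ratio 0.60) and level with the lists (0.04). Its interval, 34.2 to 65.8%, included the share of the chromosome, so the 2 were not distinguishable at this number of summits. With scores ranked within chromosome 8 the median percentiles were 66.2 and 16.4.

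**Figure D4:**
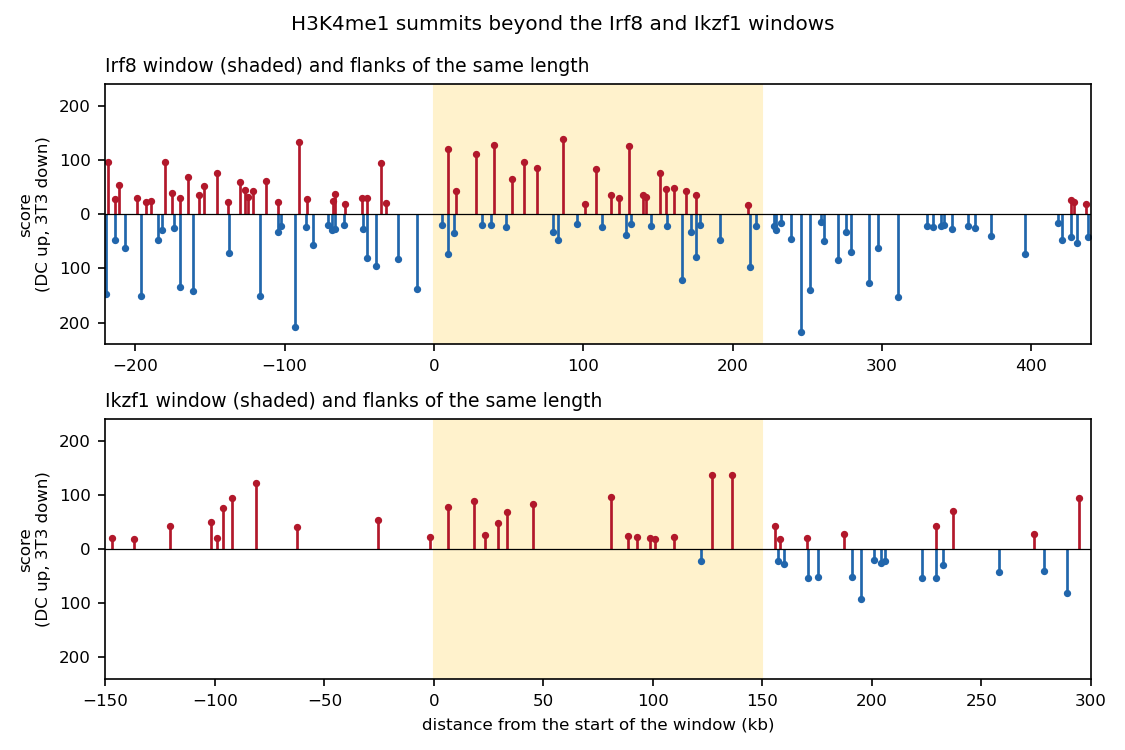
Summits in the Irf8 (top) and Ikzf1 (bottom) windows, shaded, and in flanks of the same length, by distance from the start of the window in kb; lines up are dendritic cell scores and lines down 3T3 scores. To the right of Irf8 the flank has 28 3T3 summits and 3 of dendritic cells, and to the left of Ikzf1 there are 11 of dendritic cells and none of 3T3.

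Irf4, the paralogue of Irf8, showed a smaller difference. On chromosome 13 from 30750000 to 30900000 dendritic cells had 18 summits, from 23 to 116 (median 48), and 3T3 had 15, from 24 to 105 (median 35). The medians stood at the 68.1st (44.2 to 90.4) and the 54.3rd percentile (42.7 to 77.9), and 27.4% of genome stretches of 150 kb had a difference as large. In dendritic cells 5 of 18 summits were in the top decile and in 3T3 2 of 15, against 10.2% and 10.1% over the whole lists. The highest dendritic cell summit, at 30878516, scored 116, and its 3T3 counterpart 86 bp away scored 36. The highest without a counterpart, at 30788648, scored 104, and the nearest of 3T3 was 1997 bp away. The highest 3T3 summit, at 30874178, scored 105, and the nearest dendritic cell summit, 4338 bp away, was the one of 116. The first high site of the window, at 30761153 in dendritic cells, had a 3T3 summit 19 bp away. The unscaled scores of 80 and 89 stood at the 90.4th and 93.9th percentile of their lists (relative log2 ratio -0.28). Of the 5 shared pairs 1 was at least 2-fold higher in dendritic cells. Dusp22 precedes Irf4 in the annotation order and Exoc2 follows it.

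Shared sites of the windows were compared pair by pair, taking mutually nearest summits within 1000 bp and the log2 ratio of dendritic cell to 3T3 score relative to the median of all pairs. There were 37 pairs, 6 at Spi1, 9 at Runx1, 7 at Cebpa, 6 at Cebpb, 4 at Irf8, 5 at Irf4 and none at Ikzf1. Dendritic cells were higher by 2-fold or more at 10 (27%, 13.8 to 44.1), against 11.6% of all pairs of the genome. 3T3 was higher by 2-fold or more at 3 (8.11%, 1.70 to 21.9), against 11.9% of all. The 10 pairs were spread over all 6 windows, with 3 at Spi1, 2 each at Cebpa and Cebpb and 1 each at Irf8, Runx1 and Irf4. The median ratio of the 37 pairs was 0.43, with an order-statistic interval of -0.23 to 0.84 that includes 0. By window the medians ran from -0.23 at Runx1 through 0.06 at Irf4, 0.28 at Cebpb, 0.77 at Irf8 and 0.80 at Cebpa to 0.92 at Spi1. With 4 to 9 pairs a window and ranges that overlap, these medians do not set the windows in an order.

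**Figure D5:**
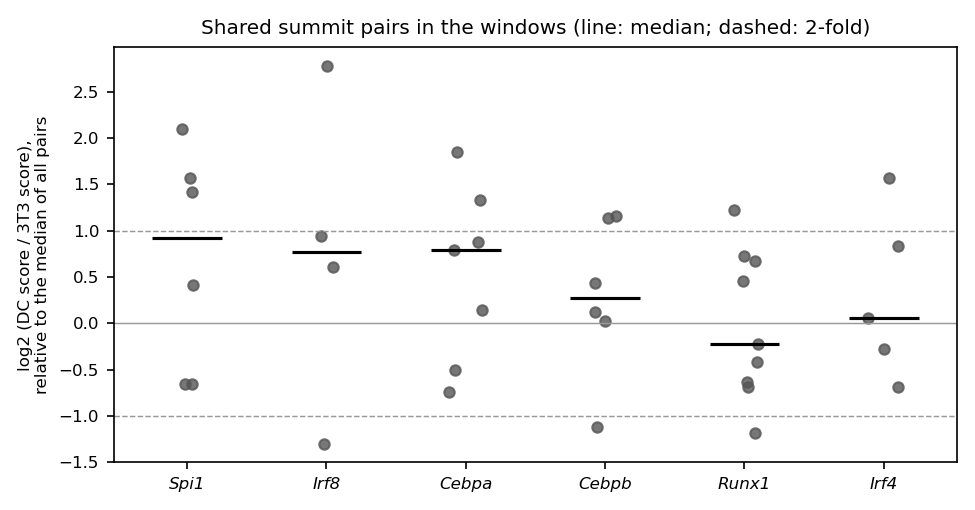
Log2 ratio of dendritic cell to 3T3 score at each shared pair of summits, relative to the median of all pairs in the genome (vertical axis), by window; short lines are medians and dashed lines mark a 2-fold difference. The points reach 2.78 at Irf8 and -1.30 in the same window, and 10 of 37 lie above the upper dashed line.

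By the dendritic cell share of summits the windows ranked Ikzf1 (93.3%), Runx1 (62.7%), Cebpb (59.5%), Spi1 (56.0%), Cebpa (55.2%), Irf4 (54.5%) and Irf8 (50%). The intervals of the last 6 overlapped each other, and that of Ikzf1 (68.1 to 99.8%) overlapped those of Runx1 (49.1 to 75.0%), Cebpb (43.3 to 74.4%), Spi1 (34.9 to 75.6%), Cebpa (35.7 to 73.6%) and Irf4 (36.4 to 71.9%) in part and lay above that of Irf8 (34.2 to 65.8%). By median height in dendritic cells the order was different, with Cebpb first and Spi1 last. Dendritic cell summits of a window lay a median of 6.49 kb (Cebpb) to 8.35 kb (Irf8) apart, a narrow range. In 3T3, leaving out Ikzf1 with its single summit, the range was 8.09 kb (Cebpb) to 11 kb (Spi1). The distance from a dendritic cell summit to the nearest of 3T3 had a median of 1337 bp at Cebpa, 1683 bp at Spi1, 2522 bp at Runx1, 3898 bp at Irf8, 4156 bp at Irf4, 5063 bp at Cebpb and 37176.5 bp at Ikzf1, against 3234 bp over the whole list.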

How the data were processed

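H3K4me1 was measured by ChIP-seq in 1 library of each cell type. Per the labels' protocols, DNA from formaldehyde-fixed nuclei was sheared to about 300 bp, amplified with 18 cycles of PCR and read from one end for 36 bp. The submitters' processing notes name Bowtie, MACS 1.4 and the mm9 genome. The p threshold was 1e-04, without a fragment model or a local background and with reads shifted by 150 bp, per the file headers. Whether peaks were called against input is unknown here. The authors deposited 1 bp summits with a score, taken here as the signal height.

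The members and lists of genes, and the windows, were chosen with earlier results of these data known. Windows were taken from a fixed rule in mm9, 1-based. A summit was shared if one of the other list lay within 1000 bp. Percentiles are mid-ranks within a list. Background stretches tiled each chromosome at the window's length and were used with at least 10 summits. Their shares are descriptions. In each window the highest summit of each list and the highest without a counterpart were named, with the densest 10 kb. Other summits and stretches, and the flank medians, were picked after their values were seen. The planned protein comparison was not made, as protein sequences were not used here. Sharing, pairing, tiling and merging were tested on simulated data. Gene order came from RefSeq (GRCm38.p6) and gives names only. The work was done in Python 3.11.15 with pandas 2.3.3, numpy 2.4.6 and scipy 1.17.1, and plots with matplotlib 3.10.9.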

Additional observations from a re-analysis of the deposited data

How the results depend on the processing

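Of 102 values recomputed under another setting, 84 stayed within the counting interval of the reported value and 18 moved beyond it. Merging summits of the same list within 1000 bp left every count in the windows unchanged. The values under that setting are among the 84 and say nothing about stability. Several intervals were wide, such as 23.2 to 98.7 for the median percentile of dendritic cells at Spi1, so staying within them is a weak check. The share of summits without a counterpart moved with the distance allowed: at 250, 500 and 2000 bp it was 86.9, 82.1 and 64.1% in dendritic cells and 81.0, 74.0 and 49.0% in 3T3. With only the 39898 highest summits of each list it was 85.3 and 75.0%, where fewer summits could be met. The dendritic cell share of the windows stayed between 59.0 and 62.9% under every setting tried. At Ikzf1 it was 100% with these highest summits and with a score minimum of 25, since the 3T3 summit of 22 dropped out. It was 74.1% (20 against 7 summits) with windows widened by 50 kb, still within the interval. At Irf8 the equal numbers depended on weak summits: with a score minimum of 25 there were 19 dendritic cell and 10 3T3 summits (65.5%), and with wider windows 25 and 34 (42.4%). The remaining 8 values that moved were background shares of genome stretches, at 3-fold or with at least 5 summits. Ranking scores within the chromosome moved no median percentile beyond its interval. Each cell type was 1 library, so none could be left out and no paired analysis was possible because the labels give no replicate.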
